A study of Homo sapiens with 4 samples.

Results

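Human genes with a ZNF symbol encode zinc finger proteins, and 125 of them were expressed in the cells studied here. A gene was taken when its symbol was ZNF followed by a number, with at most 1 letter after it, and when its level was at least 10 CPM (counts per 1000000) as the mean over the 4 libraries. CPM is the number of unique molecular identifiers (UMIs) of a gene per 1000000 UMIs of a library, with all barcodes of the library summed. Of the 36601 listed genes, 509 had such a symbol and 8507 reached the limit. Among the 384 ZNF genes below it, 279 had a mean of 1 to 10 CPM, 94 had under 1 CPM and 11 had no UMI in any library. Apart from the symbol, the genes were chosen by this measured level alone, so the levels are given as a description. Just inside the limit were ZNF84 (10.2 CPM) and ZNF585A (10.1 CPM), and just outside it ZNF331 (9.96 CPM) and ZNF625 (9.89 CPM). The limit acts on the mean, so it is tied to the direction in genes near it. In 22 genes only the control and 1 Gy libraries reached 10 CPM and both low doses did not, and in ZNF585A only the low doses did.

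The cells were BEAS-2B, a human bronchial epithelium line that was immortalized for culture. The study exposed it to gamma rays from a Cs-137 source, at 100 mGy/min in T25 culture bottles, giving 10 mGy, 100 mGy or 1 Gy, and compared these with cells that received no radiation. All irradiated cells were cultured for 30 min and were then profiled with a droplet method that counts the 3' ends of polyadenylated RNA, cell by cell. Each dose is 1 library of 1 cell line, so dose and library cannot be told apart, no test between doses was possible, and the intervals given are exact 95% intervals that cover counting error only.

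A classical (C2H2) zinc finger is a short fold in which a pair of cysteines and a pair of histidines hold a zinc ion, and arrays of such fingers read DNA or bind RNA. Many ZNF proteins also carry a KRAB box, which recruits the corepressor TRIM28 (KAP1), and with it the histone methyltransferase SETDB1 and HP1 proteins, to silence chromatin, often over transposable elements. A SCAN box lets such proteins pair with each other. Genes of this family lie in large clusters on chromosome 19, and many of their transcripts are known to be short-lived.

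The repeat unit is shown here for the 3 genes with the highest ratio of 10 mGy to control and for the gene with the lowest. Each line is the coding strand of 1 finger, 5′ to 3′, from the longest coding sequence of the gene in GENCODE 29, and the capitals mark the codons of the zinc-binding cysteines and histidines. In ZNF32, ZNF226 and ZNF407 the finger is followed by the linker that joins neighbouring fingers. The bases are 187 to 255 of the coding sequence for ZNF593 (chromosome 1), 319 to 396 for ZNF32 (chromosome 10), 1093 to 1170 for ZNF226 (chromosome 19) and 4888 to 4965 for ZNF407 (chromosome 18).
ZNF593: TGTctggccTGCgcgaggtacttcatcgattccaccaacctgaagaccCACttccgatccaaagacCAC
ZNF32: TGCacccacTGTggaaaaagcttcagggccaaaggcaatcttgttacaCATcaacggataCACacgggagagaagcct
ZNF226: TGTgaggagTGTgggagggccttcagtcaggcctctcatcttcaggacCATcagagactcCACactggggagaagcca
ZNF407: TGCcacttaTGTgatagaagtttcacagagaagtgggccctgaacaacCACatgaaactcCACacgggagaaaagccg

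By the pattern of a finger in the translated sequence, ZNF593 held 1 finger, ZNF32 6, ZNF226 17 and ZNF407 23. The range over all 125 genes was 0 to 33. The 4 longest arrays, with 30 or more fingers, were in ZNF462, ZNF142, ZNF91 and ZNF236. Another 6 genes (ZNF185, ZNF330, ZNF365, ZNF503, ZNF703 and ZNF720) held no match to the strict pattern in their longest coding sequence. The linker was found in 77 of the 125 genes, and in 45 of the 47 genes with a KRAB box.

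A KRAB box was scored in 47 genes, a SCAN box without KRAB in 6, and neither in 72. Over all 509 ZNF genes 338 had a KRAB box, so 13.9% of the KRAB genes and 45.6% of the 171 others reached the limit of 10 CPM. The expressed KRAB genes were also lower, with a median level of 13.6 CPM against 25.9 CPM in the genes with neither box. UMIs count molecules, so these levels were not divided by transcript length. Chromosome 19 held 34 of the 125 genes (27.2%), against 5.96% of all tested genes, and 19 of these 34 had a KRAB box.

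The libraries held 211752280 to 285806026 UMIs in 11111 to 21514 barcodes, and each of the 125 genes had between 1760 and 53465 UMIs in each library. Keratins KRT7, KRT8 and KRT18 were at 254 to 582 CPM as means over libraries, while the epithelial genes KRT19 (1.96 CPM), EPCAM (1.03 CPM) and CDH1 (0.035 CPM) were near 0, so only part of the epithelial list was present. Of 7 markers of other cell types, PTPRC, CD3E, PECAM1, HBB and COL3A1 were at or near 0, while COL1A1 (23.2 CPM) and CD68 (9.47 CPM) were present, with values of 20.5 to 25.6 CPM and 7.02 to 10.8 CPM over the libraries. Barcodes whose UMI count stayed below the median of their library when multiplied by 3, called low-UMI here, made up 19.6% to 41.4% of the libraries, the most at 10 mGy. Libraries shared 76 to 134 barcode sequences per pair, at most 0.864% of the smaller library. Ribosomal protein genes took 12.9% of the UMIs without radiation and 18.7%, 20.4% and 13% with rising dose, and mitochondrially encoded genes 5.91% without radiation and 4.55%, 4.40% and 5.78% with rising dose, so the libraries of the low doses stand apart in composition. When both gene sets were left out of the totals, the shares of the ZNF genes were 0.519%, 0.413%, 0.413% and 0.514% from the control to 1 Gy, with both low doses below the others.

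The summed level of the 125 ZNF genes was lower in the libraries of the low doses. Their part of all UMIs was 0.421% without radiation (95% interval 0.420 to 0.422), and with rising dose 0.317% (0.317 to 0.318), 0.311% (0.310 to 0.312) and 0.418% (0.417 to 0.419). Among barcodes that were not low-UMI, each thinned to 10000 UMIs, the median barcode held a UMI of 31.8 of the genes without radiation and of 25, 24.3 and 31.9 of them at the rising doses. Without thinning the medians were 55, 42, 33 and 46, and 250, 623, 2458 and 988 barcodes under 10000 UMIs were left out of the thinned values. The control and 1 Gy libraries lie together by both measures, and so do the libraries of 10 mGy and 100 mGy. In sums over a library, fewer cells with a transcript and fewer transcripts per cell cannot be told apart.

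Single genes showed the same order. Both low doses were below both the control and 1 Gy in 108 of the 125 genes, where 67.6% of all tested genes had this order. The opposite order, with both low doses above, was seen in 12 genes (20.7% of all tested genes), namely ZNF22, ZNF32, ZNF226, ZNF322, ZNF428, ZNF580, ZNF581, ZNF585A, ZNF593, ZNF695, ZNF706 and ZNF749. The other 5 were ZNF143, ZNF330, ZNF354A, ZNF480 and ZNF511. These names were taken after the values were seen. Without the 23 genes that reached 10 CPM only in the control and 1 Gy or only at the low doses, a choice made after seeing the data, the order held in 86 of 102 genes and in 66.4% of all genes trimmed in the same way.

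Taking 1.2-fold, the fold used in the study, as the limit of a call, 95 genes were lower at 10 mGy than in the control (53.0% of all tested genes passed) and 7 were higher (15.4%). At 100 mGy 100 genes were lower (58.9%) and 6 higher (14.0%). Without those 23 genes 74 of 102 were lower at 10 mGy (51.3% of all genes so trimmed) and 79 at 100 mGy (57.4%). At 1 Gy 4 genes were lower (0.846%) and 0 higher (1.28%). The median log2 ratio to the control was -0.51 at 10 mGy, where the median of all tested genes was -0.30. It was -0.56 against -0.38 at 100 mGy, and 0.03 against 0.02 at 1 Gy. Since the median of all genes was itself displaced at the low doses, the genes were also scaled so that this median was close to 0. With that scaling 54 genes were lower (27.3% of all tested genes) and 16 higher (30.6%) at 10 mGy, and 41 were lower (29%) and 18 higher (31.8%) at 100 mGy. The low-dose comparisons share the control library and are not independent of each other.

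**Figure D1:**
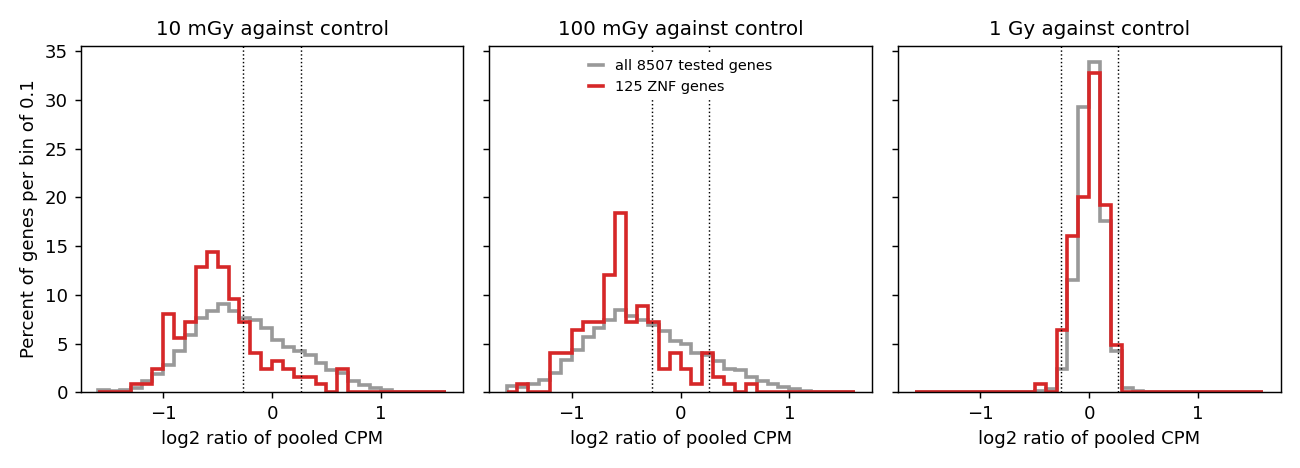
Percent of genes (vertical axis) by log2 ratio of pooled CPM to the control in bins of 0.1 (horizontal axis), for the 125 ZNF genes (red) and all 8507 tested genes (grey), 1 panel per dose, with values beyond the ends placed in the end bins. Dotted lines mark 1.2-fold. At 10 mGy and 100 mGy the ZNF genes centre at -0.51 and -0.56, left of all genes at -0.30 and -0.38, and at 1 Gy both stay close to 0.

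The 12 genes with the highest mean level were ZNF207, ZNF106, ZNF593, ZNF706, ZNF511, ZNF148, ZNF326, ZNF217, ZNF292, ZNF638, ZNF451 and ZNF644, and none of them had a KRAB box. ZNF207 (BUGZ), which binds the checkpoint protein BUB3 at kinetochores and also acts in splicing, was at 211, 129, 138 and 215 CPM from the control to 1 Gy. ZNF106, an RNA-binding protein, was at 201, 141, 140 and 209 CPM in the same order. Their ratios at 10 mGy were 0.613 (0.605 to 0.622) and 0.700 (0.690 to 0.709). ZNF593 and ZNF706 went the other way. ZNF593, whose yeast counterpart helps to export the large ribosomal subunit from the nucleus, was at 117 CPM in the control, against 187, 186 and 118 CPM with increasing dose. ZNF706, a small protein with 1 finger, was at 129, 167, 155 and 121 CPM. ZNF511 stayed between 89.6 and 94.6 CPM in all libraries, but with median ratio scaling it lay above the control at both low doses. By mean level ZNF207 and ZNF106 were both at 173 CPM, followed by ZNF593 at 152 and ZNF706 at 143, and 64 of the 125 genes lay between 10 and 20 CPM.

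**Figure D2:**
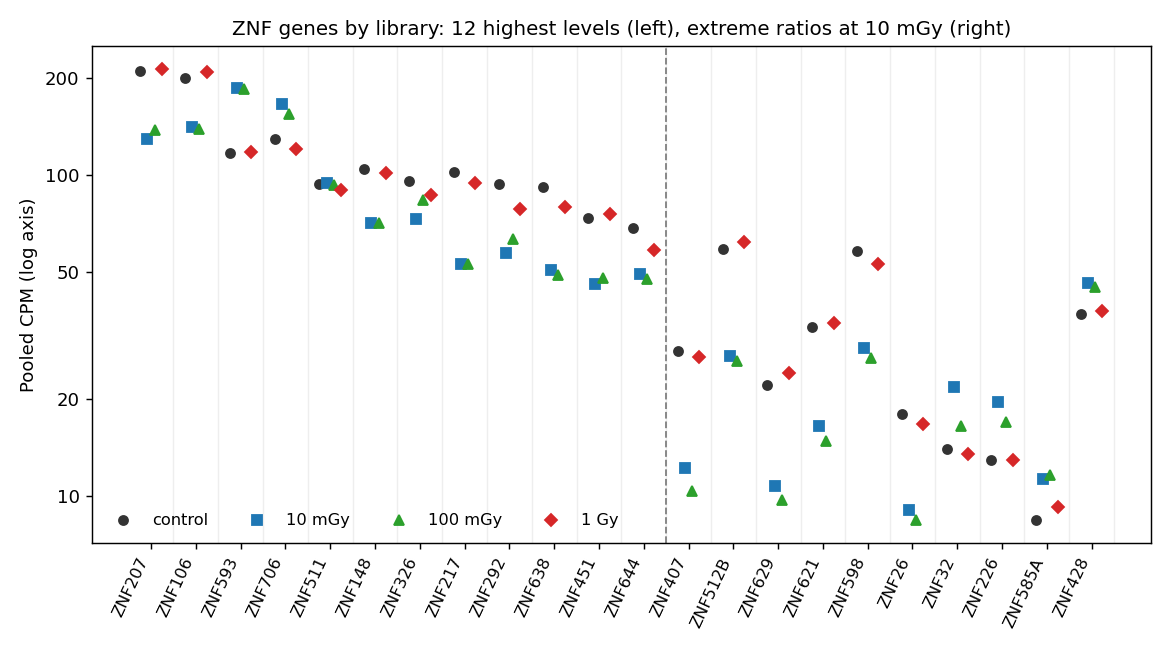
Pooled CPM (log axis) of the 12 ZNF genes with the highest mean level, left of the dashed line, and of further genes among the 6 lowest and 6 highest ratios of 10 mGy to control, right of it, with 1 point per library. For ZNF207 the points of both low doses (129 and 138 CPM) lie below those of the control and 1 Gy (211 and 215 CPM), and for ZNF593 above them.

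Of 11 listed genes that act on RNA or ribosomes, 10 were among the 125. Of the 10, 7 were over 1.2-fold lower at 10 mGy and 1 was higher, and at 100 mGy 6 were lower and 1 higher. Of all tested genes 53.0% and 58.9% were lower, and 15.4% and 14.0% higher. The counts of this group are thus near those of all genes, above all at 100 mGy. With median ratio scaling 3 were lower (27.3% of all tested genes) and 2 higher (30.6%) at 10 mGy, and 2 lower (29%) and 2 higher (31.8%) at 100 mGy. ZNF598 is a ubiquitin ligase that marks ribosomal proteins on collided ribosomes. It was at 58.0 CPM without radiation and 28.9, 27.0 and 52.9 CPM at the rising doses, a ratio of 0.497 (0.484 to 0.511) at 10 mGy. ZNF638, which takes part in silencing of unintegrated retroviral DNA, was at 91.8, 50.7, 48.9 and 79.4 CPM. ZNF326, a subunit of a complex that couples transcription elongation to splicing, was at 95.7, 73.0, 83.8 and 86.4 CPM, and its log2 ratio at 100 mGy, -0.19, was 0.19 after median ratio scaling. Without median ratio scaling the only gene of this group with a higher call was ZNF593, with a ratio of 1.60 (1.58 to 1.62) at 10 mGy and 1.59 (1.56 to 1.61) at 100 mGy. With that scaling ZNF330 was higher too, at both low doses. ZNF622, a factor of large subunit biogenesis, was at 40.8, 35.5, 32.2 and 39.0 CPM, so 2 genes tied to that subunit lay on opposite sides of the control at the low doses. With median ratio scaling ZNF622 was at 1.07 and 1.03 times the control, the other side of 1. ZNF330, a nucleolar protein, was within 1.2-fold at each dose in CPM (28.7, 32.3, 27.6 and 30.9), and ZNF830 was at 19.8, 15.2, 16.7 and 19.6 CPM. At 100 mGy both lay above the control after median ratio scaling, with log2 ratios of 0.33 and 0.14. ZNF346, which binds double-stranded RNA, had the highest ratio of the 125 genes at 1 Gy, with 23.4 CPM in the control and 27.8 at 1 Gy, while its values at the low doses, 19.1 and 19 CPM, lay above the control after median ratio scaling.

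Genes known as partners of chromatin or transcription complexes were mostly lower at the low doses. Of 16 measured, 14 were lower at 10 mGy (53.0% of all tested genes) and 15 at 100 mGy (58.9%), and none was higher at either dose (15.4% and 14.0%). Of other genes of like length 4.45% and 3.55% were higher. The medians of the 16 genes were -0.57 and -0.63 on the log2 scale. The exceptions were ZNF410 and ZNF503 at 10 mGy and ZNF143 at 100 mGy. With median ratio scaling 9 were lower at 10 mGy (27.3% of all tested genes) and 8 at 100 mGy (29%). At 100 mGy 1 gene, ZNF143, was then higher (31.8%), with a log2 ratio of 0.39. ZNF217, an amplified oncogene in breast cancer whose product works with the CoREST and CtBP corepressors, was at 102, 52.8, 52.7 and 94.7 CPM from the control to 1 Gy. ZNF644, a partner of the histone methyltransferases G9a and GLP, was at 68.3, 49.0, 47.3 and 58.2 CPM. ZNF148 was at 105, 70.7, 70.6 and 101 CPM, and ZNF281 at 60.4, 40.7, 40.4 and 60.0 CPM. In these the libraries of 10 mGy and 100 mGy were close to each other and apart from the other two.

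ZNF609 had ratios of 0.526 at 10 mGy and 0.534 at 100 mGy, ZNF146 0.510 and 0.499, ZNF703 0.536 and 0.486, and ZNF462 0.653 and 0.613. ZNF592 had 0.663 and 0.625, ZNF518A 0.667 and 0.546, ZNF827 0.708 and 0.596, and ZNF131 0.751 and 0.758. Smaller differences were seen in ZNF24 (0.780 and 0.783) and ZNF503 (0.872 and 0.790). After median ratio scaling ZNF24 was at 0.960 and 1.02, and ZNF503 at 1.07 and 1.03, so these 2 have no fixed side.

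ZNF143, which binds and activates many promoters, was at 21.8 CPM in the control, against 18.0, 21.8 and 20.5 CPM with increasing dose. It was the only one of the 125 genes over 1.2-fold higher at 100 mGy than at 10 mGy (1.35% of all tested genes), and its ratio to the control at 10 mGy changed side with the scaling (0.825, and 1.02 after median ratio scaling). In the same comparison 6 genes were lower (12.7%). With median ratio scaling 3 were higher (4.69% of all tested genes) and 2 lower (6.35%). The median log2 ratio of the 125 genes turned from -0.045 to 0.038, so this comparison has no fixed direction. The lowest were ZNF395 (0.734) and ZNF32 (0.759). ZNF395 went from 18.1 CPM at 10 mGy to 13.3 at 100 mGy, and ZNF32 from 21.8 to 16.5 CPM. ZNF395 shared 41.7% of the 50-base stretches of its transcript with the neighbouring gene FBXO16, so its UMIs may be split between them.

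Genes tied to DNA damage or to SUMO conjugation were ZNF281, ZNF451, ZNF668, ZNF827 and ZNF830, of which ZNF281, ZNF827 and ZNF830 are also in the groups above. All 5 were lower at 10 mGy (53.0% of all tested genes) and 4 at 100 mGy (58.9%), where ZNF830 stayed within 1.2-fold. After the median ratio scaling 2 were lower at 10 mGy and 1 at 100 mGy, close to the shares of all tested genes (27.3% and 29%). ZNF451, a SUMO ligase that assists the repair enzyme TDP2, was at 73.5 CPM without radiation and 45.8, 47.9 and 75.4 CPM at the rising doses. ZNF668 was at 13.1, 10.1, 8.93 and 13.7 CPM. At 1 Gy, the highest dose, the ratios of these 5 genes lay between 0.993 and 1.16, with no call. Few of all tested genes had a call at that dose (0.846% lower and 1.28% higher).

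The KRAB genes had median log2 ratios of -0.51, -0.58 and 0.0024 with rising dose. The genes with neither box had -0.51, -0.54 and 0.03, and the 6 SCAN genes -0.55, -0.60 and 0.09. The KRAB median minus that of all 78 other genes was 0.01, -0.03 and -0.03, and among genes of at least 20 CPM the first of these was -0.13. Of the KRAB genes 37 of 47 were lower at 10 mGy (53.0% of all tested genes) and 3 higher (15.4%), and 41 lower (58.9%) and 3 higher (14.0%) at 100 mGy. These are 78.7% and 87.2% lower, and 6.38% higher at each dose. Of other genes of like length 70.4% and 76.8% were lower, and 4.45% and 3.55% higher. The medians of those other genes were -0.46 and -0.56, close to those of the KRAB genes. Leaving out the 15 KRAB genes that reached 10 CPM only in the control and 1 Gy (14) or only at the low doses (ZNF585A), 24 of 32 were lower at 10 mGy (51.3% of all genes so trimmed) and 27 at 100 mGy (57.4%). The counts with median ratio scaling were 20 lower (27.3% of all tested genes) and 5 higher (30.6%) at 10 mGy, and 14 lower (29%) and 5 higher (31.8%) at 100 mGy. The lowest ratios in this class were those of ZNF621 (0.491 and 0.441), ZNF26 (0.501 and 0.467) and ZNF445 (0.505 and 0.470). With 14 genes of the class at 10 CPM only in the control and 1 Gy, low ratios in it can be tied to the selection. The highest were those of ZNF226, with 12.9, 19.6, 16.9 and 12.9 CPM from the control to 1 Gy, and of ZNF585A, with 8.38, 11.3, 11.6 and 9.20 CPM. ZNF749 was at 10.2, 12.4, 12.3 and 10.5 CPM. In ZNF226 and ZNF749 the control and 1 Gy on one side and the low doses on the other did not overlap (20.7% of all tested genes had both low doses above). ZNF585A had the same order, but its mean reached the limit only through the low doses, so its direction is tied to its selection. It also shared 14.5% of its 50-base stretches with ZNF585B.

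Of 18 genes of the corepressor machinery of the KRAB box, 13 were lower at 10 mGy (53.0% of all tested genes) and 12 at 100 mGy (58.9%), and none was higher (15.4% and 14.0%). The medians were -0.54 and -0.51. Of other genes of like length 70.4% and 76.8% were lower. Scaled by the median ratio, 9 were lower (27.3% of all tested genes) and 4 higher (30.6%) at 10 mGy, and 8 lower (29%) and 3 higher (31.8%) at 100 mGy. TRIM28 itself was at 154 CPM in the control, against 124, 139 and 167 CPM with increasing dose, a ratio of 0.809 (0.797 to 0.821) at 10 mGy and 0.902 (0.889 to 0.916) at 100 mGy, so it passed the limit only at 10 mGy. TRIM28 had no call at either low dose after median ratio scaling, and its level then lay above the control at 100 mGy. SETDB1 was at 16.6, 13, 12 and 17 CPM. At 10 mGy the lowest ratios were those of MORC2 (0.456 and 0.440), which acts with the HUSH silencing complex, and of the NuRD subunits MTA2 (0.475 and 0.514) and CHD3 (0.511 and 0.477). HUSH itself was mixed, with TASOR at 0.614 and 0.50 (below MTA2 at 100 mGy), MPHOSPH8 at 1.12 and 1.08 and PPHLN1 at 1.09 and 1.16. CHD4, a known direct target of ZNF410, was at 315, 188, 186 and 344 CPM, while ZNF410 was at 22.3, 18.9, 17.7 and 24.7 CPM. ZNF410 was at 1.04 and 1.03 times the control at the low doses after median ratio scaling. The 22 zinc finger genes with the other family names (ZFP, ZBTB, ZSCAN and ZKSCAN) had medians of -0.60 and -0.74, against -0.30 and -0.38 in all tested genes. Of these 19 were lower at 10 mGy (53.0% of all tested genes) and 21 at 100 mGy (58.9%), and none was higher (15.4% and 14.0%). Of other genes of like length 70.4% and 76.8% were lower, and 4.45% and 3.55% higher. By the median ratio scaling 12 and 13 of the 22 were lower (27.3% and 29% of all tested genes), and 1, ZBTB45, was higher at both doses (30.6% and 31.8%).

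At the low doses the lowest ratio of all 125 genes was that of ZNF407, with 28.3 CPM without radiation and 12.2, 10.3 and 27.1 CPM at the rising doses. The intervals of its ratios, 0.431 (0.413 to 0.449) at 10 mGy and 0.365 (0.348 to 0.382) at 100 mGy, did not overlap. Such a step is common, since 67.8% of all tested genes had a ratio of 100 mGy to 10 mGy below 1. In 4911 of the 8507 the counting interval of that ratio lay wholly below 1. ZNF512B was at 58.6, 27.2, 26.2 and 61.6 CPM, ZNF629 at 22.2, 10.7, 9.67 and 24.1 CPM, and ZNF507 at 30.4, 16.8, 13.5 and 30.2 CPM. In all 4 the control and 1 Gy libraries were within 1.2-fold of each other, as in nearly all tested genes (0.846% were lower and 1.28% higher at 1 Gy). More than 2-fold lower were 5 genes at 10 mGy (4.13% of all tested genes) and 11 at 100 mGy (8.59%), the same shares of the ZNF genes as of all genes to within 1 gene.

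Among the genes without a KRAB box, ZNF32 was at 14.0, 21.8, 16.5 and 13.5 CPM from the control to 1 Gy, and its ratio fell from 1.56 (1.49 to 1.63) at 10 mGy to 1.18 (1.13 to 1.24) at 100 mGy. ZNF428 was at 36.9, 46.0, 44.7 and 37.8 CPM, and ZNF22 at 46.7, 51.2, 57.6 and 43.0 CPM. ZNF593, ZNF32, ZNF428 and ZNF22 are short, with exons of 0.769, 1.44, 1.80 and 2.55 kb in total, whereas ZNF407 has 12.2 kb.

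Exonic length (the summed length of all annotated exons of a gene) went with the ratio over the whole family. The 15 ZNF genes under 3 kb had a median log2 ratio of 0.01 at 10 mGy and -0.05 at 100 mGy, and the 110 longer genes -0.55 and -0.59. Other tested genes under 3 kb had 0.19 and 0.15, and longer ones -0.40 and -0.48. With all tested genes cut into 5 equal classes by length, the ZNF genes were below the other genes of the same class at 10 mGy in each class, with -0.45 against -0.15 in the second class, -0.54 against -0.34 in the third, -0.50 against -0.46 in the fourth and -0.67 against -0.61 in the fifth. The gap was wider in the first 3 classes. In the fourth class 70.4% of the other genes were over 1.2-fold lower at 10 mGy and 76.8% at 100 mGy, against 86.1% and 91.7% of its ZNF genes. The median lengths of the partners of chromatin and transcription complexes (7869 bases) and of the corepressor genes (7029.5 bases) above lie in this class. So do those of the KRAB genes (6845 bases) and of the 22 genes with the other family names (6561.5 bases). At 100 mGy the medians of the fourth class were nearly level, with -0.57 in the ZNF genes and -0.56 in the others. The fifth class went the other way at that dose, with -0.71 in the ZNF genes and -0.73 in the others. Spearman's rho between length and log2 ratio was -0.44 over the 125 genes at both low doses and -0.56 and -0.57 over 8374 other genes with a length. These points share the 2 libraries of each ratio, so rho is a description. At 1 Gy rho was -0.05.

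**Figure D3:**
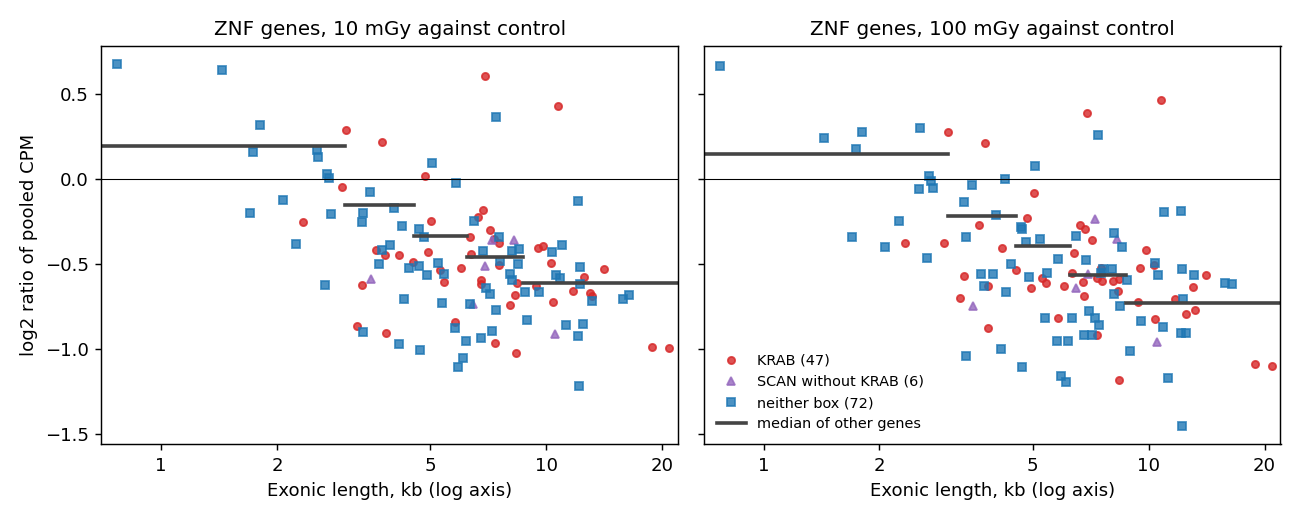
Log2 ratio of pooled CPM to the control (vertical axis) against exonic length in kb (log axis) for the 125 ZNF genes at 10 mGy (left) and 100 mGy (right), with symbols for KRAB genes, SCAN genes and genes with neither box. Horizontal bars are the medians of the other tested genes in 5 length classes, from 0.19 in the shortest to -0.61 in the longest at 10 mGy. Of the ZNF genes of 3 kb or more, 103 of 110 (93.6%) lie below 0 at 10 mGy, as do 81.1% of the other tested genes of this length, and the 3 classes overlap.

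Of the genes of 3 kb or more, 4 were over 1.2-fold higher at 10 mGy (3.64%, against 8.48% of the other tested genes of this length), namely ZNF749 (3.02 kb), ZNF226 (6.92 kb), ZNF706 (7.39 kb) and, chosen in part by that direction, ZNF585A (10.8 kb). Genes with 0 to 3 fingers had medians of -0.38 and -0.37 at the low doses, and those with 10 or more fingers -0.53 and -0.57. The first group also had shorter exons, with a median of 4.70 kb against 6.84 kb in the second.

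The 34 genes on chromosome 19 had medians of -0.37 and -0.38 at the low doses, against -0.54 and -0.58 on the other chromosomes. Their exons had a median length of 6.33 kb against 6.49 kb, and the part of length in this difference was not tested. The 19 KRAB genes on chromosome 19 had -0.38 and -0.56 at the low doses. Of the 34 genes, 20 were lower at 10 mGy (53.0% of all tested genes) and 22 at 100 mGy (58.9%), and 4 were higher at each dose (15.4% and 14.0%). ZNF430, ZNF714 and ZNF431 stand side by side, and their ratios at 10 mGy were 0.880, 0.680 and 0.692. ZNF724, ZNF91 and ZNF675, each with at most 2 other genes between neighbours, had 0.648, 0.605 and 0.662. The adjacent short genes ZNF580 and ZNF581 were at 1.02 and 1.12, and they share sequence (16.1% of the 50-base stretches of ZNF581), so their UMIs may be split. Coordinates are not given because the build named in the submitters' notes differs from that of the annotation used here.

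At 1 Gy, 4 of the 125 genes were over 1.2-fold lower. ZNF675 was at 23.6 CPM in the control and 17.6 at 1 Gy, a ratio of 0.748 (0.717 to 0.780). The others were ZNF800 at 0.819 (0.794 to 0.844), ZNF267 at 0.828 (0.792 to 0.867) and ZNF91 at 0.832 (0.798 to 0.867), and ZNF292 at 0.834 and ZNF644 at 0.852 lay just inside the limit. ZNF675, ZNF267 and ZNF91 carry a KRAB box. At 10 mGy and 100 mGy ZNF675 had 15.6 and 14.6 CPM. On the other side the highest ratios were 1.19 for ZNF346, 1.18 for ZNF275 and ZNF500, 1.17 for ZNF592 and ZNF579, and 1.16 for ZNF827.

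GC content went with the ratio at 1 Gy. It was taken over all annotated transcripts of a gene, so an exon in several transcripts counts each time. In 3 equal classes of the tested genes by GC content, the 53 ZNF genes of the lowest class had a median log2 ratio of -0.06, the 37 of the middle class 0.04 and the 35 of the highest class 0.09. The other tested genes had -0.04, 0.02 and 0.07 in the same classes. Spearman's rho was 0.56 over the 125 genes and 0.37 over the 8374 others, again a description across genes that share 2 libraries. All 4 genes called lower at 1 Gy were in the lowest class, which also holds the most ZNF genes and 35 of the lower calls of the other genes, against 13 in the middle and 20 in the highest class. At 10 mGy and 100 mGy rho with GC content was 0.07 and 0.01 in the ZNF genes.

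**Figure D4:**
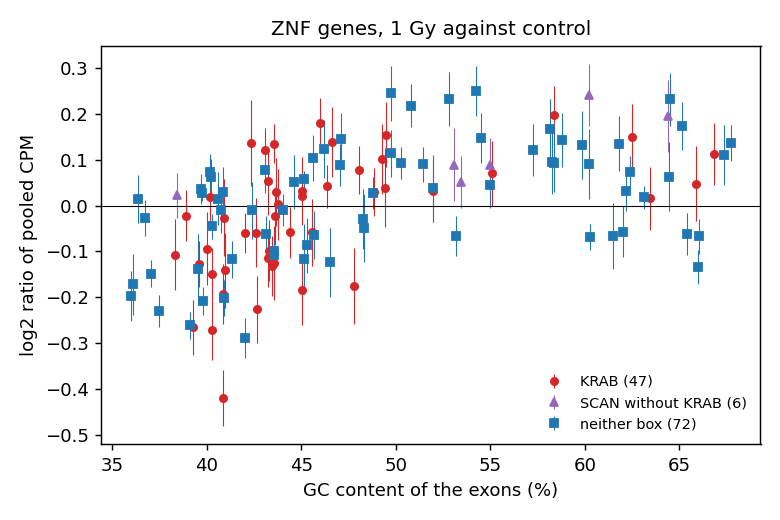
Log2 ratio of pooled CPM at 1 Gy to the control (vertical axis) against GC content in percent (horizontal axis) for the 125 ZNF genes. GC content is over all annotated transcripts of a gene. Symbols show the box class, and bars are exact 95% counting intervals. The genes of low GC content reach down to ZNF675 at a ratio of 0.748, and most genes of high GC content lie above 0.

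The levels were also compared between barcodes of the same library, which gives 4 values per gene. The 17 G2/M marker genes (mitosis) and the 17 G1/S marker genes (DNA replication) were used to rank barcodes, leaving out low-UMI barcodes, and the 10% with the highest share of UMIs in the markers were set against the lower 50%. Directions are counted over the libraries, with no test. The share is a continuous score cut at fixed ranks, 40% of the barcodes lie between the cuts, and the barcodes above the cut are a range, not a cell type. The marker genes themselves were at 0.699% to 0.878% of UMIs in the median barcode of the high G2/M set and 0.176% to 0.241% in the lower set. Barcodes high in G2/M markers had more UMIs than the lower set in each library, with medians of 26582 against 20180 in the control, and the part of this depth in the ratios was not tested.

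In barcodes high in G2/M markers 44 ZNF genes were above 1 in all 4 libraries (41.5% of all tested genes) and 30 were below 1 in all 4 (2556 of the 8507 tested genes). In this comparison 4 were over 1.2-fold higher in all 4 libraries (7.92% of all tested genes), and 5 of the 125 were lower (7.71%). ZNF318 led, with ratios of 1.75 in the control, against 1.48, 1.74 and 1.61 with increasing dose. ZNF714, which lies between KRAB genes on chromosome 19 but scored no KRAB box here, had 1.40, 1.30, 1.47 and 1.47. ZNF609 (1.23 to 1.32) and ZNF574 (1.23 to 1.36) were the others. The lower genes were ZNF749 (0.690 to 0.822), ZNF827 (0.688 to 0.752), ZNF672 (0.686 to 0.815), ZNF703 (0.717 to 0.814) and ZNF668 (0.744 to 0.814). ZNF652 and ZNF12 had larger medians than ZNF609, 1.34 and 1.31, but fell to 1.15 and 1.17 at 1 Gy. The whole family was near level, with medians of 1.00 to 1.04 per library, where all tested genes had 1.01 to 1.04. The kinetochore partner ZNF207 was at 1.07 to 1.12.

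In barcodes high in G1/S markers 53 ZNF genes were above 1 in all 4 libraries (37.9% of all tested genes) and 22 below (25.7%). Of these, 3 were over 1.2-fold higher in all 4 libraries (6.34% of all tested genes) and 0 lower (2.14%). All 3 carry a KRAB box. They are 3 of the 47 KRAB genes, near the share of all tested genes, against 0 of the 78 others. ZNF675 was at 1.37 without radiation and 1.40, 1.42 and 1.41 at the rising doses. ZNF33A was at 1.28, 1.37, 1.41 and 1.30, and ZNF724 at 1.24, 1.47, 1.34 and 1.21. ZNF518A, without a KRAB box, had 1.33, 1.30 and 1.36 but 1.14 at 1 Gy. The smallest medians were those of ZNF574 (0.827), ZNF593 (0.846), ZNF689 (0.847) and ZNF579 (0.863), each below 1 in all 4 libraries. ZNF574 was thus on the high side in G2/M barcodes and on the low side in G1/S barcodes in each library. These 2 comparisons are not separate. Barcodes high in G1/S markers held a smaller share of G2/M markers than the lower set in each library (0.229% against 0.510% in the control). How many of all tested genes had this double pattern was not counted. By class, the KRAB genes had medians of 1.08, 1.04, 1.12 and 1.02 from the control to 1 Gy, and the genes without a KRAB box 1.03, 1.02, 1.06 and 1.00. The KRAB median was the higher of the pair in each of the 4 libraries. All tested genes had 1.01, 1.02, 1.04 and 1.01 in the same order. ZNF genes of 3 kb or more had 1.04, 1.03, 1.09 and 1.01, and shorter ones 0.997, 0.999, 0.966 and 0.977. The part of length in the difference between the classes was not tested. The barcodes high in G1/S markers had fewer UMIs than the lower set, with medians of 19416 against 23347 in the control.

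The low-UMI barcodes held a smaller share of ZNF transcripts than the other barcodes in each library, from 0.399% against 0.421% in the control to 0.366% against 0.419% at 1 Gy, with 0.288% against 0.319% and 0.286% against 0.311% at the low doses. Their ribosomal protein share was higher (13.4% against 12.9% in the control, 15.4% against 12.9% at 1 Gy) and their mitochondrially encoded share lower (5.08% against 5.93%, and 3.80% against 5.83%) in each library, and the part of this in the ratios was not tested. Of the 125 genes, 50 were below 1 in all 4 libraries (31.1% of all tested genes) and 8 above (19.9%). The 1 gene over 1.2-fold higher in all 4 (2.66% of all tested genes) was ZNF480, a KRAB gene, with 1.22, 1.51, 1.71 and 1.58 from 74 to 304 UMIs. ZNF277 (1.18 to 1.35) and ZNF226 (1.13 to 1.29) were above 1 in all 4 libraries, and ZNF32 was at 0.917 in the control and 1.2 to 1.47 in the others. Lowest by the median were ZNF124, with 1.06, 0.444, 0.518 and 0.604 on 27 to 62 UMIs, and ZNF503, with 0.492, 0.759, 0.631 and 0.703. ZNF518A (0.631 to 0.885) and ZNF16 (0.620 to 0.867) followed, and ZNF124 alone of these 4 crossed 1 between libraries. Over 1.2-fold lower in all 4 libraries were 4 genes (4.34% of all tested genes).

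**Figure D5:**
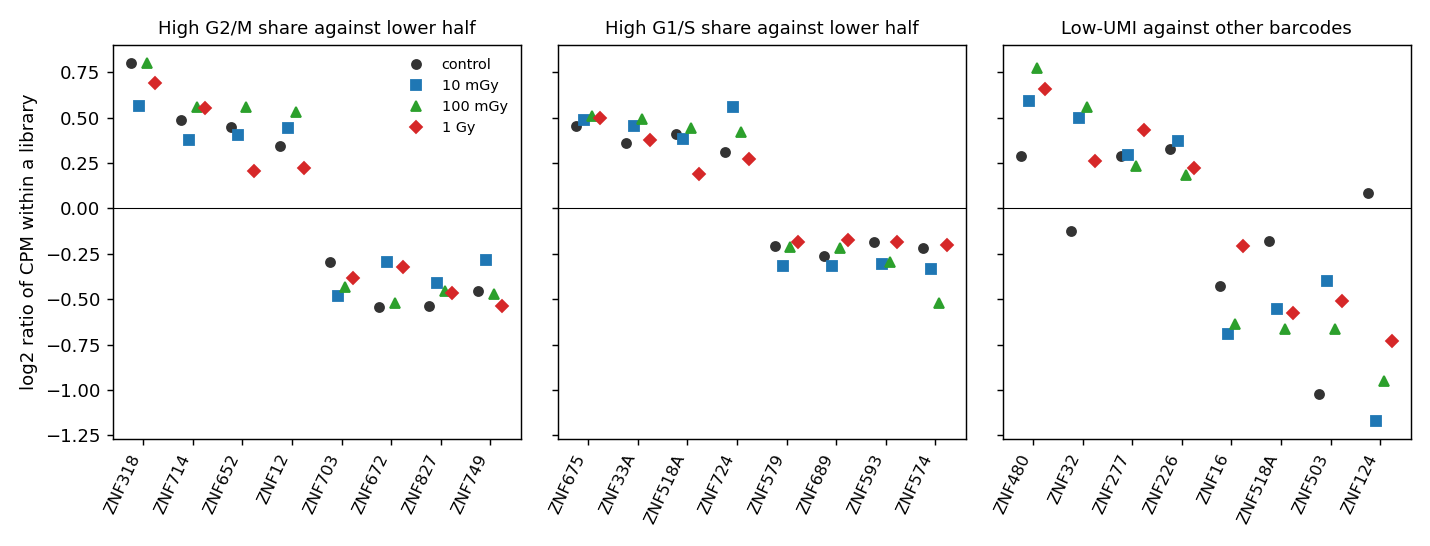
Log2 ratio of CPM between barcodes of the same library (vertical axis) for the 4 largest and 4 smallest medians in each of 3 comparisons, with 1 point per library. The G2/M and G1/S genes keep 1 side of 0 in all 4 libraries. In the G1/S comparison ZNF675 has ratios of 1.37 to 1.42 before the log is taken. ZNF32 and ZNF124 cross 0 in the low-UMI comparison, where counts are few.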

How the data were processed

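For 4 libraries of BEAS-2B cells, raw UMI counts of each gene in each barcode were deposited by the authors. The file headers name Cell Ranger 7.0.1, and the submitters' processing notes name Cell Ranger, STAR and GRCh37. Every deposited barcode was used, and doublets were not removed. Counts were summed per library and scaled to CPM. Genes with a mean of at least 10 CPM were compared (8507), as ratios with exact conditional binomial intervals, and a call meant over 1.2-fold. Exonic length, GC content and coding sequences were read from GENCODE 29 by identifier, with a match for all 125 genes. This release is annotated on GRCh38. KRAB and SCAN boxes were found in translated coding transcripts with HMMER 3.4 (E-value of at most 1e-05). Shared sequence is the percent of 50-base stretches of the longest coding transcript found in transcripts of another listed gene. The genes named are the 12 highest levels, the 6 largest and 6 smallest ratios per dose, the role lists, the corepressor list, the genes nearest the limit and the 4 largest and 4 smallest medians per within-library comparison. Other genes were named after their values were seen. Members and lists were chosen with earlier results of these data known. The calculation of ratios and intervals was checked on counts simulated from the control library with counting error only. Such counts hold no variation between libraries, so that variation was not tested. Alternatives were other scalings, barcode filters, floors of 1 and 20 CPM, a 1.5-fold limit and other cuts of barcodes. Total counts of 211752280 to 285806026 per library make counting intervals narrow. The missing replicates limit the precision. Python 3.11.15, numpy 2.4.6, scipy 1.17.1 and pandas 2.3.3 were used.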

Additional observations from a re-analysis of the deposited data

How the results depend on the processing

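No paired analysis was possible because each dose has 1 library. Each value below belongs to the same result as in the main text. With median ratio scaling 54 genes were lower and 16 higher at 10 mGy (median log2 ratio -0.21), 41 lower and 18 higher at 100 mGy (-0.18), and 2 lower and 3 higher at 100 mGy against 10 mGy, where the median turned from -0.05 to 0.038. The log2 ratio to control turned to 0.023 for ZNF143 and 0.0091 for ZNF346 at 10 mGy, and at 100 mGy to 0.032 for ZNF24, 0.069 for ZNF275, 0.088 for ZNF346, 0.049 for ZNF410, 0.044 for ZNF503 and 0.043 for ZNF622. Among named genes within 1.2-fold of the control it also turned, to 0.056 for ZNF410, 0.10 for ZNF503, 0.046 for ZNF579 and 0.10 for ZNF622 at 10 mGy, and to 0.19 for ZNF326, 0.33 for ZNF330, 0.37 for ZNF511, 0.25 for ZNF579 and 0.14 for ZNF830 at 100 mGy, while 5 turned at 1 Gy, each with sizes of at most 0.029. As means over barcodes scaled to 10000 UMIs, the median was -0.58 at 10 mGy, and 2 genes were higher at 100 mGy than at 10 mGy. Without ribosomal protein and mitochondrially encoded genes the medians were -0.43 and -0.45, 10 genes were higher at 100 mGy, and the shares of UMIs were 0.519%, 0.413%, 0.413% and 0.514% from the control to 1 Gy. Without low-UMI barcodes the shares were 0.319% at 10 mGy and 0.419% at 1 Gy. The other alternatives change how many genes enter or pass by construction. With a floor of 1 CPM (404 genes) 309 were lower and 16 higher at 10 mGy, 338 and 11 at 100 mGy, 22 and 2 at 1 Gy, and 59 were lower at 100 mGy than at 10 mGy, with shares of 0.571%, 0.425%, 0.410% and 0.567%. With a floor of 20 CPM (61 genes) 44 were lower and 3 higher at 10 mGy, 47 and 3 at 100 mGy, 1 was lower at 1 Gy and 3 at 100 mGy against 10 mGy, with shares of 0.318%, 0.243%, 0.240% and 0.314%, and the median of KRAB genes minus the others at 10 mGy turned from 0.01 to -0.13. With a limit of 1.5-fold 51 were lower and 3 higher at 10 mGy, 55 and 1 at 100 mGy, 0 lower at 1 Gy, and 0 lower and 0 higher at 100 mGy against 10 mGy. How many of all tested genes had a call was not counted for these floors or for 1.5-fold. Nor was it counted for the means over barcodes or without ribosomal protein and mitochondrially encoded genes. The counts of ZNF genes under these settings are therefore not set against all genes. Where no construction is given, the cause was not tested. The filter on genes and mitochondrially encoded UMIs and the other cuts of low-UMI, G2/M and G1/S barcodes moved none of the counts checked over all ZNF genes by over 1.5 times. Neither did leaving out the genes that share sequence, or those at 10 CPM only in the control and 1 Gy or only at the low doses. These 2 sets were chosen after seeing the data. Without the second set the lower calls of the KRAB genes moved further, from 37 of 47 to 24 of 32 at 10 mGy and from 41 to 27 at 100 mGy. The ratios between libraries rest on at least 1760 UMIs per gene and library, while the low-UMI ratios rest on few UMIs per gene. Median UMIs per barcode ran from 12417 at 100 mGy to 19771 in the control, and the part of this in the ratios between libraries was not tested.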
